A study of Homo sapiens with 27 samples.

Results

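TXNIP and the arrestin domain genes ARRDC1, ARRDC2, ARRDC3 and ARRDC4 are 5 of the 19775 genes that the arrays measured by at least 1 probe set with a single gene symbol. They were chosen by name, from hypoxia responses already seen on these arrays, and 8 probe sets carry their symbols. Their differences between hypoxia and control are therefore given as a description, with standard errors and without p values. The study compared human cancer cells in which low and ambient oxygen alternated with cells in continuous low oxygen and with cells in ambient oxygen. The cells were PC-3, a prostate cancer line, SK-OV-3, an ovarian cancer line, and WM793B, a melanoma line, so that each cancer is represented by 1 established line. Each line gave 3 arrays of cycling hypoxia, 3 arrays of chronic hypoxia and 3 control arrays, 27 in all, from cultures kept for 72 h. Cells in cycling hypoxia spent spells of 4 h or 12 h in 1% oxygen, with 4 h of 21% oxygen after each, and were collected after such a reoxygenation. Cells in chronic hypoxia stayed at 1% oxygen, and control cells at 21%. PC-3 cells grew in RPMI and SK-OV-3 cells in McCoy's medium, while WM793B cells grew in Tu medium with less serum and with added insulin and calcium, in all 3 conditions.

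The 5 genes belong to the alpha-arrestins, adaptor proteins that attach ubiquitin ligases to membrane proteins and so direct these to internalisation or degradation. Their tails carry PPxY motifs, which bind the WW domains of ligases of the NEDD4 family. TXNIP is the exception in also binding reduced thioredoxin through a cysteine, and it limits glucose uptake by promoting the internalisation of the glucose transporters GLUT1 (SLC2A1) and GLUT4 (SLC2A4). TXNIP and ARRDC4, which limits glucose uptake as well, are known targets of the glucose sensor MondoA (gene MLXIP) and its partner MLX. ARRDC3 is an adaptor of integrin beta 4, and ARRDC1 recruits TSG101 to the plasma membrane and drives the budding of microvesicles. ARRDC2 is less well characterised.

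The 250 bases in front of the outermost annotated start are shown for TXNIP, ARRDC4 and ARRDC3, since TXNIP and ARRDC4 had similar patterns on the arrays and ARRDC3 had another. They come from RefSeq on GRCh38.p14 and run 5′ to 3′ on the strand of the gene. TXNIP lies on the minus strand at chr1:145992435-145996579 and its window at chr1:145996580-145996829. ARRDC4 lies on the plus strand at chr15:97960703-97973833, with its window at chr15:97960453-97960702, and ARRDC3 on the minus strand at chr5:91368631-91383317, with its window at chr5:91383318-91383567. Capitals mark the cores ACGTG and GCGTG, which hypoxia-inducible factors can bind, on either strand, and a pair of E-box-like motifs, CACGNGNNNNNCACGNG, of the kind known to bind MondoA and MLX in the TXNIP promoter.
TXNIP: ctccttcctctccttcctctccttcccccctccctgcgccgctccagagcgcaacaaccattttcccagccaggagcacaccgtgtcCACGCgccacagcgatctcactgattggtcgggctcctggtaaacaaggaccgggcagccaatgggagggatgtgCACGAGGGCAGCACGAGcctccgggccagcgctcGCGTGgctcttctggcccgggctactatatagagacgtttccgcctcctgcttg
ARRDC4: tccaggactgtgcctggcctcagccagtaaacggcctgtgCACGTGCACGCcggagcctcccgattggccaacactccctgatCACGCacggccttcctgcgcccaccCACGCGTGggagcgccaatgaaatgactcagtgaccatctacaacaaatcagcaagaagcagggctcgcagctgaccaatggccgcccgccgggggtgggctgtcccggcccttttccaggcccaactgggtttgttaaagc
ARRDC3: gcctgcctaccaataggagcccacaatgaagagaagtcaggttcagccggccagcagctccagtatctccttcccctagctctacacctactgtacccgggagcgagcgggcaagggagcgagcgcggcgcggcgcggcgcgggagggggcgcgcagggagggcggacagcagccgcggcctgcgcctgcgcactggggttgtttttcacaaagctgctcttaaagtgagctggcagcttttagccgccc

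The window of TXNIP held the paired motif at positions -88 to -72 from the start, GCGTG at -54 to -50 and, on the opposite strand, at -163 to -159. The letters of the paired motif were chosen with this promoter in view. It occurred in 16 of 35116 promoter windows of the same length, or 0.0456%, and in no other window of the family. In ARRDC4 an E box, CACGTG, stood at -210 to -205, and each strand of an E box contains the core ACGTG. The core GCGTG occurred in the ARRDC4 window 4 times, with 1 match overlapping another on the opposite strand. The ARRDC3 window held neither core. Over all windows ACGTG was found in 18.5%, GCGTG in 32.2% and CACGTG in 6.34%, searched on both strands. The box CCAAT, found in 32.0%, occurred in the ARRDC4 window 3 times, in the TXNIP window at -140 to -136 and -105 to -101 and in the ARRDC3 window at -241 to -237. ARRDC1, at chr9:137605686-137615360, had a CCAAT box and no core, and ARRDC2, at chr19:18001124-18014102, had GCGTG at -49 to -45 on the opposite strand and at -21 to -17. A match is a match of letters and was not tested as a binding site.

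Values are log2 GC-RMA signals, on which a step of 1 is a 2-fold change, and run from 2.28 to 15.52, with the noise level taken as 5. The number of arrays limits their precision, and the lowest correlation between replicates, across all probe sets, was 0.9935 to 0.9972 in the 9 groups. Each gene was read by its probe set with the highest mean, and levels of different genes are not compared, since probe sets differ in brightness. Epithelial keratins and adhesion genes were detected in PC-3 as well as SK-OV-3 cells, 5 of 5, and in WM793B cells 0 of 5 (group means of at least 5). In WM793B cells 3 of 6 melanocyte markers were detected, MITF, SOX10 and S100B, while the pigment genes PMEL, MLANA and TYR were not, and MITF was detected in the other lines as well. Of 2 measured prostate markers, HOXB13 was detected in PC-3 cells alone and KLK3 in no line. Of 2 chosen for SK-OV-3 cells, PAX8 was detected there alone and ERBB2 in every line, and the blood cell markers PTPRC and HBB were not detected in any line. The levels come from RNA of whole cultures, where fewer cells of a kind and less RNA per cell cannot be told apart.

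**Figure D1:**
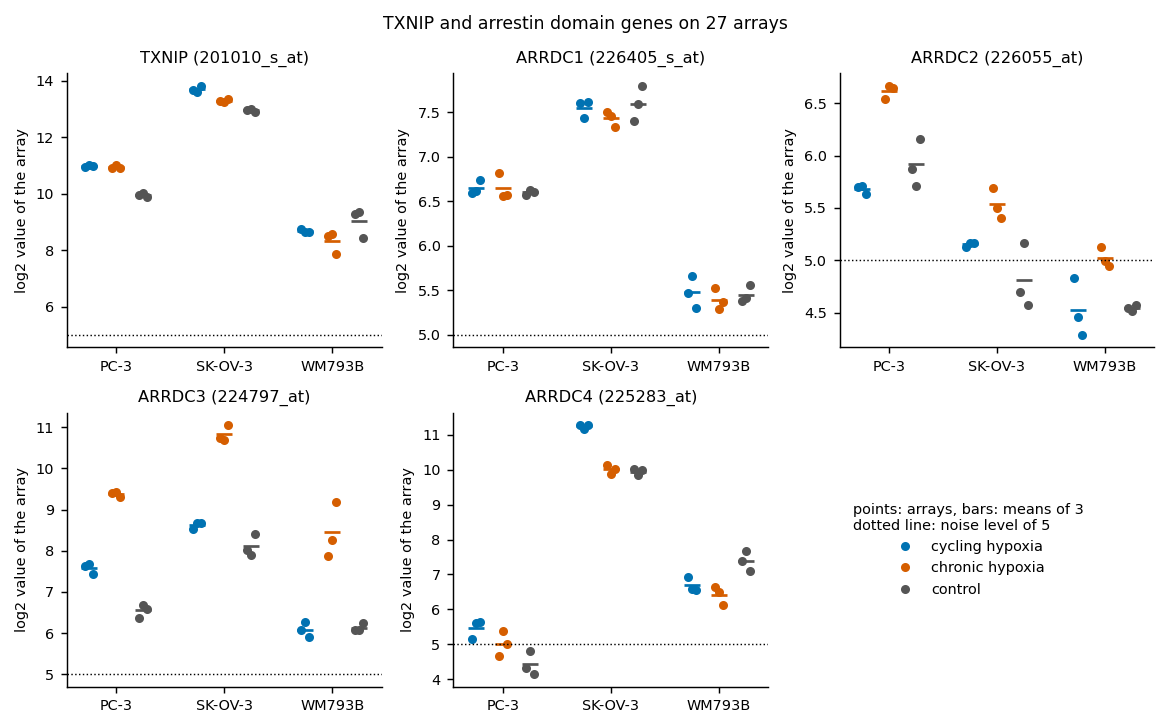
Log2 value of each array (points) for the lead probe set of the 5 genes, by cell line and condition, with the mean of 3 arrays as a bar and the noise level of 5 as a dotted line. ARRDC3 stands highest in chronic hypoxia in every line, and TXNIP and ARRDC4 stand highest in cycling hypoxia in SK-OV-3 cells but highest in control culture, by their means, in WM793B cells.

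In control culture the cell lines differed in all 5 genes, and 4 of them were highest in SK-OV-3 cells. TXNIP stood at 9.28, 9.36 and 8.45 in WM793B, 9.97, 10.04 and 9.90 in PC-3 cells and 12.98, 12.99 and 12.91 in SK-OV-3 control cells. The arrays of the 3 lines did not overlap. TXNIP was lower in WM793B than in PC-3 cells by a log2 difference of -0.94 (SE 0.18, limma adjusted p = 0.000206), and lower in PC-3 than in SK-OV-3 cells by -2.99 (SE 0.18, limma adjusted p = 2.48e-11). Between WM793B and SK-OV-3 cells the log2 difference was -3.93 (limma adjusted p = 2.86e-13), or 15.3-fold. The SE is pooled over all groups, while TXNIP spread far more in WM793B control cells (SD 0.51, with replicate 3 low) than in PC-3 control cells (SD 0.07). With control arrays only, the lead probe set kept its call for WM793B against PC-3 cells and another TXNIP probe set lost it.

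ARRDC4 varied most between the lines. It stood at 7.40, 7.68 and 7.11 in WM793B, at 4.33, 4.80 and 4.15 in PC-3 and at 10.01, 9.84 and 9.98 in SK-OV-3 control cells. All 3 PC-3 arrays were under the level of 5 taken as noise, so that bounds are given. ARRDC4 was at least 30.7-fold lower in PC-3 than in SK-OV-3 cells (limma adjusted p = 9.14e-15) and at least 5.27-fold higher in WM793B than in PC-3 cells (limma adjusted p = 1.3e-10). The log2 difference of WM793B from SK-OV-3 cells was -2.54 (SE 0.20, limma adjusted p = 1.28e-09).

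ARRDC3 averaged 6.12 ± 0.10 in WM793B, 6.56 ± 0.16 in PC-3 control cells and 8.11 ± 0.26 in SK-OV-3 control cells (SD, n = 3 each). WM793B and PC-3 cells did not pass the test (log2 difference -0.43, limma adjusted p = 0.155), although their arrays did not overlap, and both were lower than SK-OV-3 cells by -1.98 (limma adjusted p = 2.02e-07) and -1.55 (limma adjusted p = 5.82e-06). Without replicate 3 of chronic WM793B cells, an array that enters only the estimate of the spread, the difference between WM793B and PC-3 cells passed the test. ARRDC1 followed the same order, with 5.45 ± 0.09 in WM793B, 6.60 ± 0.03 in PC-3 control cells and 7.60 ± 0.20 in SK-OV-3 control cells (SD, n = 3 each). Its log2 differences were -1.15 for WM793B against PC-3 (limma adjusted p = 6.68e-09) and -0.99 for PC-3 against SK-OV-3 cells (limma adjusted p = 5.81e-08).

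ARRDC2 had the reverse order between PC-3 and SK-OV-3 cells. It averaged 4.55 ± 0.03 in WM793B, 5.91 ± 0.23 in PC-3 control cells and 4.81 ± 0.31 in SK-OV-3 control cells (SD, n = 3 each). In PC-3 cells it was higher than in SK-OV-3 cells by 1.10 on the log2 scale (SE 0.14, limma adjusted p = 1.17e-06), where 2 of the 3 SK-OV-3 arrays were under the noise level. In WM793B cells all 3 arrays were under it, and ARRDC2 was at least 1.88-fold lower than in PC-3 cells (limma adjusted p = 6.05e-08). WM793B and SK-OV-3 cells did not pass the test (log2 difference -0.27, limma adjusted p = 0.156), but did so without replicate 3 of the SK-OV-3 control cells.

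Of the 8 probe sets, 5 were called lower and 1 higher in WM793B than in PC-3 control cells (limma adjusted p under 0.05), where 17.5% and 17.4% of all 54613 probe sets were. In WM793B against SK-OV-3 cells 6 were lower, with a background of 19.3% lower and 17.7% higher. In PC-3 against SK-OV-3 cells 6 were lower and 1 higher, with a background of 17.9% and 17.8%. Without dim probe sets, 6 of 7 were called for WM793B against PC-3 cells, where 16874 of 22710 probe sets were. For WM793B against SK-OV-3 cells 6 of 7 were called, with 17666 of 22710 in the background. For PC-3 against SK-OV-3 cells 7 of 7 were called, with 17302 of 22710. Nothing is read from these counts, and 3 of the 8 probe sets are of TXNIP. Cell line and culture medium cannot be told apart in these comparisons.

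TXNIP, the thioredoxin-binding member, was about 2-fold higher in both kinds of hypoxia in PC-3 cells, higher mainly in cycling hypoxia in SK-OV-3 cells, and lower by its means in WM793B cells. In PC-3 cells its values were 10.96, 11.03 and 10.99 in cycling hypoxia, 10.92, 11.01 and 10.93 in chronic hypoxia and 9.97, 10.04 and 9.90 in control cells. Both hypoxic groups lay wholly above the control arrays and overlapped with each other. The log2 difference from control was 1.02 in cycling and 0.98 in chronic hypoxia (SE 0.042 each), and between cycling and chronic hypoxia it was 0.04.

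In SK-OV-3 cells TXNIP stood at 13.68, 13.62 and 13.83 in cycling hypoxia, 13.28, 13.24 and 13.35 in chronic hypoxia and 12.98, 12.99 and 12.91 in control cells. The 3 groups were separate, with cycling hypoxia the highest. The log2 difference was 0.75 for cycling hypoxia against control, 0.33 for chronic hypoxia against control and 0.42 for cycling against chronic hypoxia (SE 0.059 each).

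In WM793B cells TXNIP stood at 8.77, 8.66 and 8.65 in cycling hypoxia, 8.51, 8.59 and 7.86 in chronic hypoxia and 9.28, 9.36 and 8.45 in control cells. Replicate 3 was the lowest array of each group, far below the others in chronic hypoxia and in control cells, and both hypoxic groups overlapped with control. The log2 difference from control was -0.33 in cycling and -0.71 in chronic hypoxia (SE 0.30 each), and 0.37 between cycling and chronic hypoxia, whose arrays were narrowly separate on this probe set and overlapped on both others. Without replicate 3 of all 3 WM793B groups, a choice made after the values were seen, the differences were -0.60 in cycling hypoxia, -0.77 in chronic hypoxia (SE 0.061) and 0.16 between cycling and chronic hypoxia. Leaving out only control replicate 3 gave -1.0 for chronic hypoxia, and leaving out only chronic replicate 3 gave -0.48.

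The 3 TXNIP probe sets moved together over the arrays. With each array centred on its cell line, their values correlated at 0.975, 0.950 and 0.968 over 27 arrays, which share the RNA and all processing. The next brightest probe set after the lead had log2 differences from control of 1.10 in cycling and 1.04 in chronic hypoxia in PC-3 cells, 0.99 and 0.69 in SK-OV-3 cells and -0.37 and -0.75 in WM793B cells. For the third probe set these were 1.08 and 0.91, 0.78 and 0.40, and -0.60 and -0.84. The size of the chronic difference in SK-OV-3 cells depended most on the probe set, 0.69 on the second probe set against 0.33 on the lead probe set. The order of the group means was the same on all 3 probe sets in every line.

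**Figure D2:**
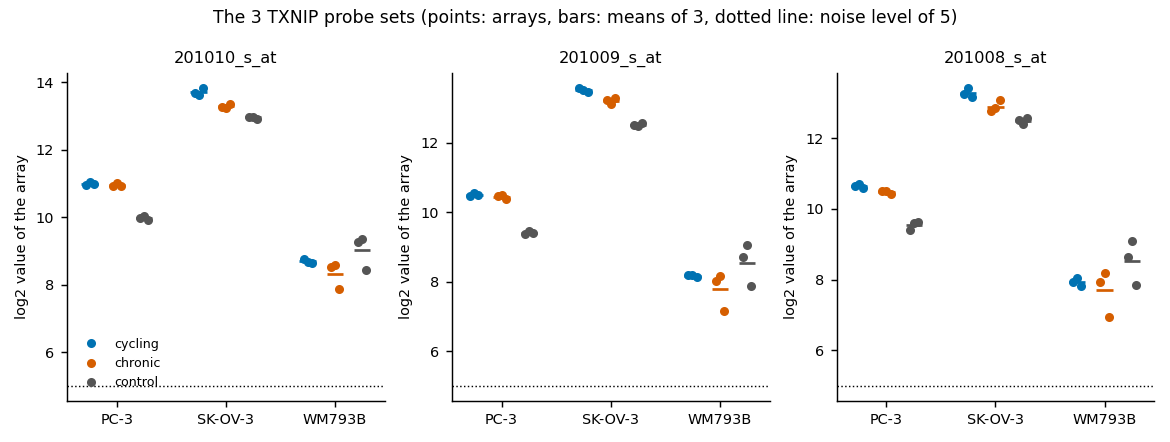
Log2 value of each array (points) on the 3 TXNIP probe sets, by cell line and condition, with the mean of 3 arrays as a bar and the noise level of 5 as a dotted line. Each probe set shows cycling hypoxia above chronic hypoxia above control in SK-OV-3 cells and, by the means, control above cycling above chronic hypoxia in WM793B cells, where 1 array of control and 1 of chronic hypoxia lie low.

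ARRDC4, the member most like TXNIP in known regulation and in effect on glucose uptake, was highest in cycling hypoxia in PC-3 as well as SK-OV-3 cells and highest in control culture in WM793B cells. In SK-OV-3 cells, where it was brightest, it stood at 11.26, 11.16 and 11.28 in cycling hypoxia, 10.12, 9.88 and 10.02 in chronic hypoxia and 10.01, 9.84 and 9.98 in control cells. The cycling arrays lay apart from all others, while the chronic and control arrays overlapped. The log2 difference was 1.29 between cycling hypoxia and control, or 2.45-fold, 1.23 for cycling against chronic hypoxia and 0.07 for chronic hypoxia against control (SE 0.074 each).

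In PC-3 cells ARRDC4 stood near the noise level, at 5.14, 5.62 and 5.65 in cycling hypoxia, 4.66, 5.37 and 5.02 in chronic hypoxia and 4.33, 4.80 and 4.15 in control cells. Cycling hypoxia lay wholly above control, by at least 1.39-fold with control set to the noise level, and chronic hypoxia overlapped with both. The measured log2 differences were 1.05 for cycling hypoxia and 0.59 for chronic hypoxia against control (SE 0.26 each), and 0.45 for cycling against chronic hypoxia.

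In WM793B cells ARRDC4 stood at 6.93, 6.58 and 6.56 in cycling hypoxia, 6.65, 6.51 and 6.11 in chronic hypoxia and 7.40, 7.68 and 7.11 in control cells. Both hypoxic groups lay wholly below control and overlapped with each other. The log2 difference from control was -0.71 in cycling and -0.97 in chronic hypoxia (SE 0.21 each), while the cycling differences of the other lines were above 0.

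**Figure D3:**
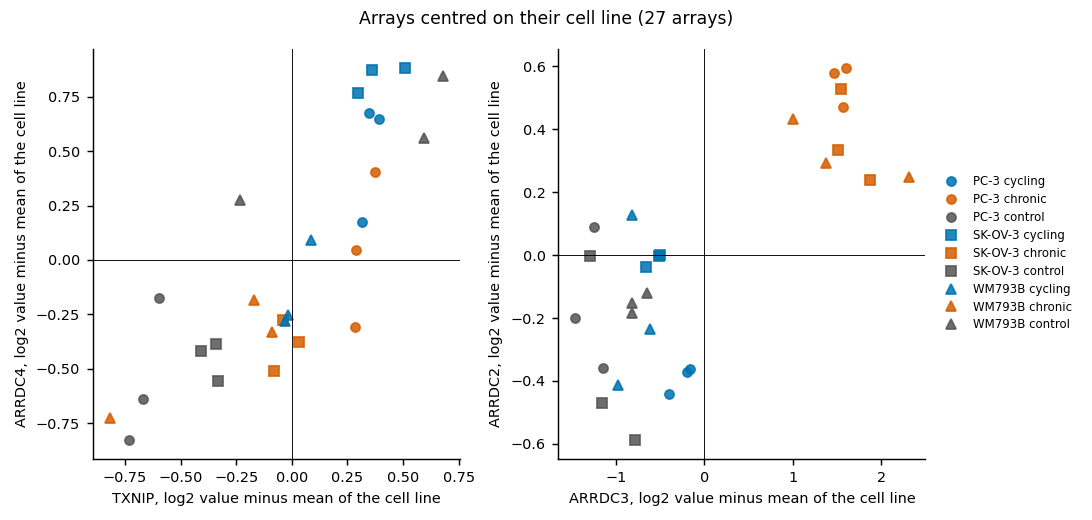
Log2 values of 27 arrays after subtraction of the mean of their cell line, for ARRDC4 against TXNIP and for ARRDC2 against ARRDC3, with cell lines as symbols and conditions as colours. ARRDC4 and TXNIP lie along 1 diagonal (r = 0.830). For ARRDC2 and ARRDC3 (r = 0.773) the chronic hypoxia arrays stand apart from all others at the upper right.

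ARRDC4 and TXNIP had similar patterns over the arrays. Centred on the cell line, they correlated at 0.830 over 27 arrays, and at 0.817 in PC-3 cells, 0.901 in SK-OV-3 cells and 0.869 in WM793B cells over 9 arrays each. Centred on the group, which removes the conditions, the correlation was 0.609. Most of the spread of TXNIP within groups lay in control and chronic WM793B cells (SD 0.51 and 0.40), against at most 0.11 in every other group. In both of these WM793B groups replicate 3 was the lowest array for TXNIP as well as ARRDC4, so that the 0.609 rests largely on them. These values describe arrays that share cultures and processing and carry no test. The 2 genes differed in chronic hypoxia of SK-OV-3 cells, where TXNIP was above control on every array and ARRDC4 was not.

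ARRDC3, the adaptor of integrin beta 4, had the largest differences of the family, and these were in chronic hypoxia in every line. In PC-3 cells it stood at 7.64, 7.67 and 7.45 in cycling hypoxia, 9.40, 9.44 and 9.30 in chronic hypoxia and 6.38, 6.69 and 6.59 in control cells. The 3 groups were separate, with cycling hypoxia between the others. Chronic hypoxia exceeded control by 2.83 on the log2 scale, or 7.09-fold, and cycling hypoxia exceeded it by 1.03, or 2.04-fold, while cycling against chronic hypoxia gave -1.80 (SE 0.098 each).

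In SK-OV-3 cells ARRDC3 stood at 8.52, 8.68 and 8.68 in cycling hypoxia, 10.73, 10.69 and 11.06 in chronic hypoxia and 8.03, 7.90 and 8.41 in control cells. The groups were again separate, but the lowest cycling array was close to the highest control array. Chronic hypoxia exceeded control by 2.72, or 6.58-fold, cycling hypoxia exceeded it by 0.52, or 1.43-fold, and cycling against chronic hypoxia gave -2.20 (log2, SE 0.16 each).

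In WM793B cells ARRDC3 stood at 6.07, 6.27 and 5.91 in cycling hypoxia, 7.88, 8.26 and 9.20 in chronic hypoxia and 6.07, 6.07 and 6.24 in control cells. Only chronic hypoxia stood apart, and its replicate 3 was the highest. The log2 difference from control was 2.32 in chronic hypoxia, or 5.00-fold, and -0.04 in cycling hypoxia, and cycling against chronic hypoxia gave -2.36 (SE 0.32 each). Without replicate 3 of all WM793B groups these were 2.00, 0.10 and -1.90. With the replicate number as a block, ARRDC3 was no longer called between cycling and chronic hypoxia in these cells.

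ARRDC2 shared the direction of ARRDC3 in chronic hypoxia, with smaller differences and values nearer to the noise level. In PC-3 cells it stood at 5.70, 5.71 and 5.63 in cycling hypoxia, 6.54, 6.67 and 6.65 in chronic hypoxia and 5.87, 5.71 and 6.16 in control cells. The chronic arrays lay above the rest, and the cycling arrays lay wholly but narrowly below control. The log2 difference from control was -0.24 in cycling and 0.70 in chronic hypoxia, and cycling against chronic hypoxia gave -0.94 (SE 0.11 each).

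In SK-OV-3 cells ARRDC2 stood at 5.13, 5.17 and 5.16 in cycling hypoxia, 5.69, 5.50 and 5.41 in chronic hypoxia and 4.70, 5.16 and 4.58 in control cells. Chronic hypoxia was the highest group, and cycling hypoxia overlapped with control, of which 2 of 3 arrays were under the noise level. The measured differences from control were 0.34 in cycling and 0.72 in chronic hypoxia, at least 1.11-fold and 1.45-fold with control set to the noise level, and cycling against chronic hypoxia gave -0.38 (log2, SE 0.16 each). In WM793B cells the values were 4.83, 4.46 and 4.29 in cycling hypoxia, 5.13, 4.99 and 4.95 in chronic hypoxia and 4.55, 4.52 and 4.58 in control cells. All but 1 of these 9 arrays were under the level taken as noise, so that the size of the measured difference of 0.48 between chronic hypoxia and control (SE 0.13) is uncertain. Centred on the cell line, ARRDC2 and ARRDC3 correlated at 0.773 over 27 arrays. Within single lines r lay between 0.780 and 0.792, over 9 arrays each. The arrays of both genes fall into chronic hypoxia and the rest, and these values carry no test. Centred on the group, which removes the conditions, the correlation of ARRDC2 and ARRDC3 was -0.304.

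ARRDC1, which works in the budding of microvesicles, varied little. It averaged 6.65 ± 0.08 in cycling hypoxia, 6.65 ± 0.15 in chronic hypoxia and 6.60 ± 0.03 in control PC-3 cells (SD, n = 3 each). In SK-OV-3 cells these were 7.55 ± 0.10, 7.44 ± 0.09 and 7.60 ± 0.20, and in WM793B cells 5.48 ± 0.18, 5.40 ± 0.12 and 5.45 ± 0.09, in the same order of groups. The groups overlapped in every comparison, and the log2 differences lay between -0.16 and 0.11 (SE 0.076 to 0.11). Its second probe set stood at 2.28 to 2.75 on all arrays, under the noise level.

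**Figure D4:**
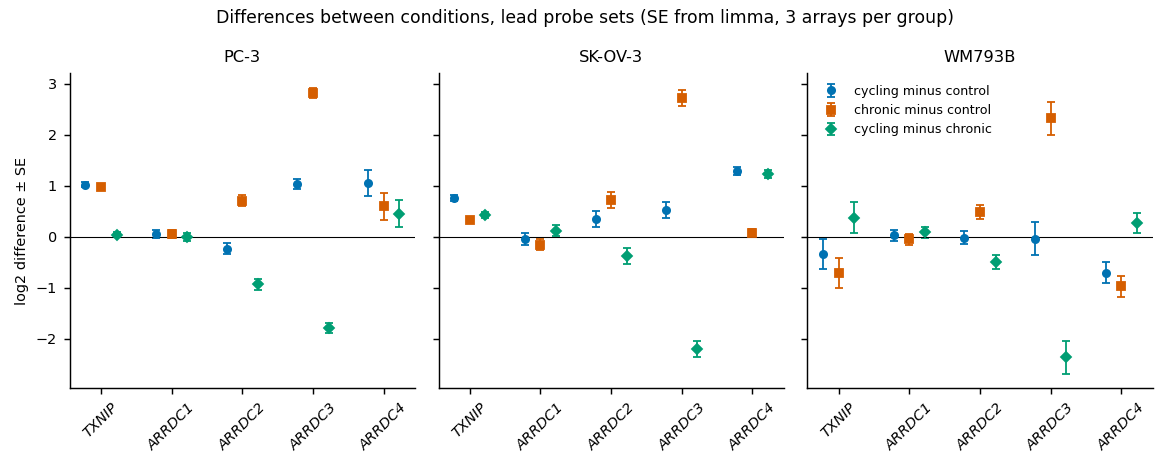
Log2 difference between conditions, with its standard error, for the lead probe set of each gene in the 3 cell lines. ARRDC3 has the largest values, 2.83, 2.72 and 2.32 for chronic hypoxia minus control, ARRDC1 stays near 0, and TXNIP and ARRDC4 lie above 0 for cycling minus control in PC-3 as well as SK-OV-3 cells and below it in WM793B cells.

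Since these responses were in view when the family was chosen, the following counts are a description beside their background, and nothing is read from them. In PC-3 cells 5 of the 8 probe sets were called, all higher, in cycling hypoxia against control, of TXNIP, ARRDC3 and ARRDC4 (background 8.28% higher and 8.49% lower), and 5, all higher, in chronic hypoxia against control, of TXNIP, ARRDC2 and ARRDC3 (background 10.8% and 14.9%). Between cycling and chronic hypoxia 2 were lower, of ARRDC2 and ARRDC3 (background 9.16% higher and 4.33% lower). Of the SK-OV-3 comparisons, 4 were higher in cycling hypoxia against control, of TXNIP and ARRDC4 (background 5.28% higher and 4.90% lower), and 5 were higher in chronic hypoxia against control, of TXNIP, ARRDC2 and ARRDC3 (background 7.52% and 8.79%). Between cycling and chronic hypoxia 3 were higher, of TXNIP and ARRDC4, and 1 lower, of ARRDC3 (background 5.49% and 4.22%). In WM793B cells 1 was higher, of ARRDC3, and 1 lower, of ARRDC4, in chronic hypoxia against control (background 6.43% and 7.26%), and 1 was lower, of ARRDC3, between cycling and chronic hypoxia (background 1.68% each way). In cycling hypoxia against control of WM793B cells limma called 0 of the 8 (background 2.16% higher and 1.87% lower), and 1 had an unadjusted p under 0.05. The median log2 difference of the 8 probe sets from control was 1.03 in cycling and 0.81 in chronic hypoxia in PC-3 cells, 0.64 and 0.36 in SK-OV-3 cells and -0.19 and -0.38 in WM793B cells, where the median of all probe sets was 0. All comparisons of a line share arrays.

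The genes with the pattern most like each member were taken from 11147 genes detected in at least 1 group, by correlation over 27 arrays centred on the cell line. For TXNIP they were ID1, an inhibitor of DNA binding by helix-loop-helix factors (r = 0.875), ARRDC4 (0.830) and AHI1, a gene of the primary cilium (0.827). For ARRDC4 they were TXNIP (0.830), the transcription factor ETS2 (0.815) and TLNRD1 (0.812). ARRDC3 was most like HILPDA, a lipid droplet protein induced by hypoxia (0.977), TENT5A (0.977) and the hypoxia-inducible gene ANKRD37 (0.967). ARRDC2 was most like PPP1R3B, a glycogen-targeting subunit of protein phosphatase 1 (0.928), YPEL2 (0.863) and the retinoic acid receptor RARA (0.859). The closest gene to ARRDC1, the dual-specificity phosphatase DUSP8, reached 0.622. Over the 9 group means, TXNIP shared AHI1 with this list, ARRDC2 shared PPP1R3B, ARRDC3 shared HILPDA and ARRDC4 shared TLNRD1, and ARRDC1 shared none.

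The partners and regulators of the family were read from lists of genes, each by its brightest probe set. Rose or fell means a limma adjusted p under 0.05. Lists and named genes were chosen with results of these data known, so these p values are a description and no independent test. Against control, the median log2 difference was -0.51 in cycling and -0.32 in chronic SK-OV-3 cells for the thioredoxins, 0.62 in chronic SK-OV-3 cells for the cargo, and 0.67 in chronic WM793B cells for the carbohydrate response factors. For the 6 lists of partners and regulators, all other medians against control lay between -0.10 and 0.36. The counts of called genes below stand beside the shares of all probe sets given above, and nothing is read from them. Without dim probe sets, 19 of 35 genes of the 6 lists were called in cycling and 23 in chronic PC-3 cells. All probe sets gave 10969 and 14788 of 22710. In SK-OV-3 cells these were 14 and 17, against 7551 and 10753. In WM793B cells they were 7 and 18, against 4354 and 9642. The known regulators of TXNIP and ARRDC4 were not tested against each other. MLXIP, which encodes MondoA, did not pass the test in any comparison. Its means were 7.06 in cycling hypoxia, 6.83 in chronic hypoxia and 7.25 in control PC-3 cells, 7.19, 7.79 and 7.02 in SK-OV-3 cells and 7.24, 6.66 and 7.48 in WM793B cells. The chronic differences were -0.42 in PC-3 (limma adjusted p = 0.0506), 0.76 in SK-OV-3 (limma adjusted p = 0.0852) and -0.82 in WM793B cells (limma adjusted p = 0.119). Its partner MLX rose in WM793B cells by 0.49 in cycling hypoxia (limma adjusted p = 0.0422) and by 0.81 in chronic hypoxia (limma adjusted p = 0.00295), and in SK-OV-3 cells by 0.39 and 0.35 (log2).

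MXD1, a repressor of the MYC network that also pairs with MLX, changed in opposite directions in the cell lines. In PC-3 cells it rose by 1.58 in cycling hypoxia (limma adjusted p = 0.000111) and by 3.20 in chronic hypoxia (limma adjusted p = 3.5e-06). In SK-OV-3 cells its log2 differences were -0.97 (limma adjusted p = 0.000998) and -2.50 (limma adjusted p = 1.74e-05). In WM793B cells, where all control arrays were under the noise level, MXD1 was at least 1.58-fold higher in chronic hypoxia (limma adjusted p = 0.0230). MNT, a related repressor, rose by 1.27 in chronic PC-3 cells and by 0.67 in chronic WM793B cells. Of 5 measured carbohydrate response factors, 2 rose in cycling and 2 in chronic hypoxia in PC-3 cells, 1 rose and 1 fell in each in SK-OV-3 cells, and 1 rose in cycling and 3 in chronic hypoxia in WM793B cells.

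In the thioredoxin system, which TXNIP binds, the reductase changed most. TXNRD1, the cytosolic thioredoxin reductase, stood at 11.44 in cycling hypoxia, 10.84 in chronic hypoxia and 12.29 in control SK-OV-3 cells, with differences from control of -0.85 (limma adjusted p = 0.00124) and -1.45 (limma adjusted p = 8.15e-05). In PC-3 cells it rose by 0.30 in cycling hypoxia (limma adjusted p = 0.00449). TXN, the thioredoxin bound by TXNIP, fell in cycling hypoxia in SK-OV-3 cells (log2 difference -0.41, limma adjusted p = 0.0321) and passed no other test. TXN2, the mitochondrial thioredoxin, fell in PC-3 cells, with log2 differences of -0.54 in cycling and -0.83 in chronic hypoxia. In WM793B cells limma called 0 of the 4 measured genes in each comparison. Against control, 1 in cycling and 2 in chronic hypoxia had an unadjusted p under 0.05. TXNRD1 averaged 12.77 in cycling hypoxia, 12.54 in chronic hypoxia and 11.98 in control WM793B cells.

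Of the 9 HECT ligases that bind PPxY motifs, ITCH had the clearest rises. In PC-3 cells it rose by 0.94 in cycling and 1.31 in chronic hypoxia (limma adjusted p = 0.000119 and 1.17e-05). In WM793B cells it rose by 0.55 and 1.19 (limma adjusted p = 0.0154 and 0.000483), and in SK-OV-3 cells the values were 0.11 and -0.27, without a call. SMURF1 rose in PC-3 cells by 0.83 in cycling and 1.02 in chronic hypoxia, and SMURF2 rose in SK-OV-3 cells by 0.75 and 1.06. NEDD4, the founding member, fell in PC-3 cells (log2 differences of -0.46 in cycling and -0.53 in chronic hypoxia) and was not called in the other lines. WWP2 rose by 1.24 in chronic hypoxia in WM793B cells (limma adjusted p = 0.0411). In all, 3 ligases rose and 1 fell in cycling hypoxia and 3 rose and 2 fell in chronic hypoxia in PC-3 cells, against 1 and 1 that rose in SK-OV-3 cells and 1 and 2 that rose in WM793B cells. The called fall of WWP2 in chronic PC-3 cells had both group means under the noise level.

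Other proteins with an arrestin fold changed less. VPS26C, an arrestin-like subunit of an endosomal recycling complex, rose in WM793B cells by 0.49 in cycling and 0.88 in chronic hypoxia (limma adjusted p = 0.0146 and 0.000687). VPS26A, its counterpart in retromer, fell in PC-3 cells, by log2 differences of -0.26 in cycling and -0.40 in chronic hypoxia, and in SK-OV-3 cells by -0.23 in chronic hypoxia. The beta-arrestin gene ARRB1 averaged between 4.20 and 5.48 in the 9 groups and was not called. These genes make up all calls against control among the 6 measured members of that list.

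Known cargo of the family included strong changes in the cell lines with epithelial markers. ITGB4, integrin beta 4 and a cargo of ARRDC3, rose by 2.21 in cycling and 2.78 in chronic hypoxia in PC-3 cells (limma adjusted p = 1.86e-05 and 2.07e-06) and by 2.40 and 2.73 in SK-OV-3 cells. It was under the noise level in all groups of WM793B cells. SLC2A1, the glucose transporter whose internalisation TXNIP promotes, rose by 0.72 in cycling and 2.47 in chronic hypoxia in PC-3 cells, and by 1.16 and 2.29 in WM793B cells. In SK-OV-3 cells it rose by 2.68 in chronic hypoxia (limma adjusted p = 1.37e-05), and its difference of 0.23 in cycling hypoxia did not pass the test (limma adjusted p = 0.155). Between cycling and chronic hypoxia the log2 difference of SLC2A1 was -1.74 in PC-3 cells, -2.45 in SK-OV-3 cells and -1.13 in WM793B cells, and all 3 passed the test. F2R, the thrombin receptor, had differences of -0.81 in cycling and -0.99 in chronic hypoxia in PC-3 cells (limma adjusted p = 0.00460 and 0.00102) and of 1.55 and 2.00 in SK-OV-3 cells (limma adjusted p = 0.00167 and 0.000324). PRKAA2, a catalytic subunit of AMP-activated kinase, which phosphorylates TXNIP, rose in chronic hypoxia by 0.79 in SK-OV-3 cells and 1.19 in WM793B cells. Of 10 measured cargo and partner genes, 3 rose in cycling and 5 in chronic hypoxia in SK-OV-3 cells, against 1 and 2 in WM793B cells. In PC-3 cells 2 rose and 1 fell in cycling hypoxia, and 2 rose and 3 fell in chronic hypoxia.

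FOXO factors and glucocorticoid response genes were listed because TXNIP and ARRDC genes are known to respond to these signals. FKBP5, a chaperone induced by glucocorticoids, had log2 differences from control of -1.73 in cycling and -2.39 in chronic hypoxia in PC-3 cells (limma adjusted p = 0.000112 and 1.17e-05) and 1.29 in cycling hypoxia in SK-OV-3 cells (limma adjusted p = 0.0134). All 3 chronic arrays of PC-3 cells were under the noise level, so that FKBP5 was at least 3.23-fold lower there. In WM793B cells, where the chronic arrays were also under it, FKBP5 was at least 1.91-fold lower in chronic hypoxia (limma adjusted p = 0.0141). FOXO1 fell in SK-OV-3 cells (log2 differences of -0.69 in cycling and -2.11 in chronic hypoxia), and the kinase gene SGK1, with all control arrays under the noise level, was at least 2.27-fold higher there in cycling hypoxia. KLF9 was called in chronic PC-3 cells with both groups under the noise level. Of 9 measured genes, 3 rose and 1 fell in cycling hypoxia and 4 rose and 1 fell in chronic hypoxia in PC-3 cells. In SK-OV-3 cells these counts were 3 and 1, and 1 and 1, and in WM793B cells 1 fell in cycling hypoxia, and 2 rose and 1 fell in chronic hypoxia.

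The hypoxia markers gave the measure of low oxygen beside which the family stands. Of 7 measured, 6 rose in cycling and 6 in chronic hypoxia in PC-3 cells, 6 and 7 in SK-OV-3 cells, and 2 and 6 in WM793B cells. Their median log2 difference from control was 1.25 in cycling and 2.33 in chronic hypoxia in PC-3 cells, 1.21 and 3.85 in SK-OV-3 cells and 0.89 and 2.29 in WM793B cells. Between cycling and chronic hypoxia 5 fell in PC-3 cells, 7 in SK-OV-3 cells and 4 in WM793B cells. The count of 4 became 2 with the replicate block and 1 to 3 on leaving out any single array, where ADM lost its call without each of the 9 arrays and NDRG1 without 8 of them. ANKRD37 rose in chronic hypoxia by 3.46 in PC-3 cells, 4.58 in SK-OV-3 cells and 4.27 in WM793B cells, ADM by 4.33 in PC-3 cells, 4.13 in SK-OV-3 cells and by at least 3.44-fold in WM793B cells, where control was under the noise level, and NDRG1 by 3.04, 3.85 and 1.44 in the 3 lines. EGLN3 was at least 4.38-fold higher in chronic SK-OV-3 cells and under the noise level in both other lines. Cells in cycling hypoxia were collected after a reoxygenation period, and the part of its length in these values was not tested.

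Some of these calls did not hold when 1 array was left out, at times an array of the condition not compared. Those of MLX in SK-OV-3 cells and cycling WM793B cells, TXN in SK-OV-3 cells, MXD1 and WWP2 in WM793B cells, KLF9 in PC-3 cells, and SLC2A1 in cycling PC-3 cells, in cycling WM793B cells and between cycling and chronic WM793B cells were each lost without any 1 of 5 to 9 of the 9 arrays of the line. FKBP5 lost its call in cycling SK-OV-3 cells without cycling replicate 1 or 3, and in chronic WM793B cells without chronic replicate 1 or control replicate 1 or 2. In cycling WM793B cells ITCH lost its call without control replicate 1 or 2, and VPS26C without cycling replicate 1 or 2.

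**Figure D5:**
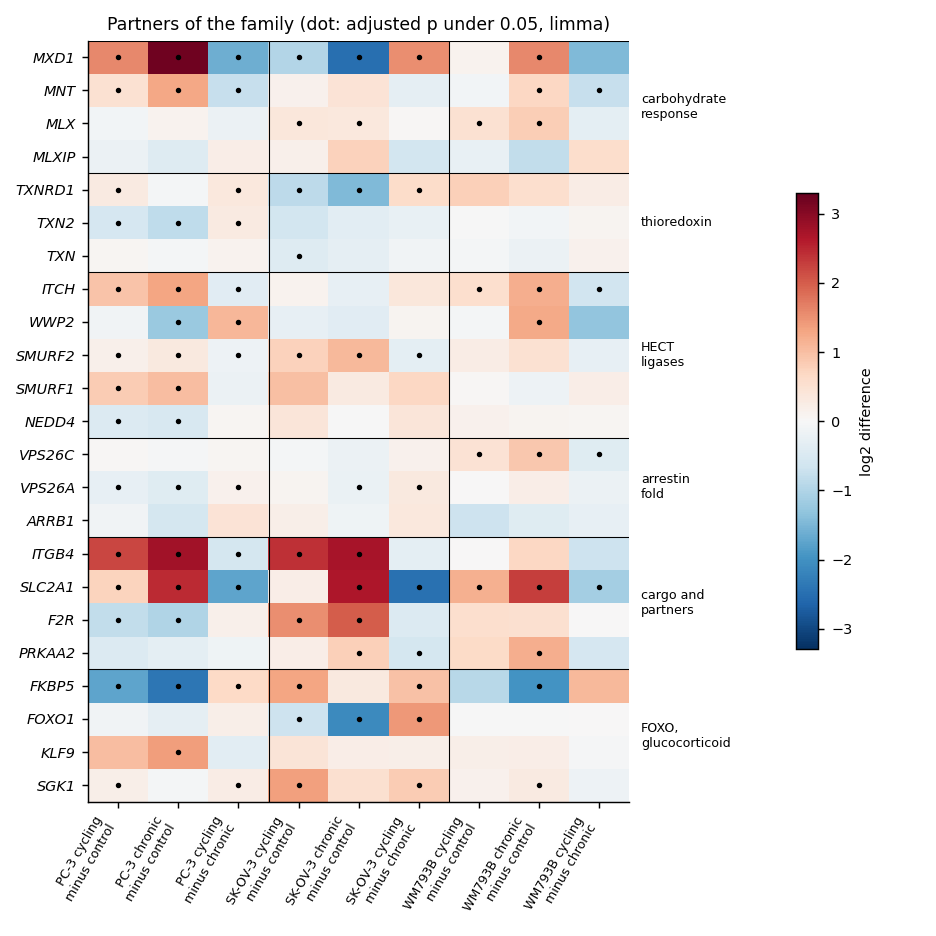
Log2 difference of each named partner or regulator (rows, grouped by list) in the 9 comparisons of hypoxia (columns, 3 per cell line), as colour from blue, lower, to red, higher, with a dot where limma's adjusted p was under 0.05. MXD1 and F2R are of opposite colours between PC-3 columns and SK-OV-3 columns for hypoxia against control, ITGB4 is red against control in PC-3 as well as SK-OV-3 cells, and SLC2A1 is blue for cycling minus chronic hypoxia in every line.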

How the data were processed

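RNA from PC-3, SK-OV-3 and WM793B cells was hybridised by the study to Affymetrix Human Genome U133 Plus 2.0 arrays, 1 array per culture and 3 biological replicates per group. The deposited log2 values were made by the authors with GC-RMA, a method that subtracts a background estimated from the bases of each probe, brings the arrays to a common distribution and gives 1 value per probe set. Since normalization is between arrays, a difference is relative to the bulk of probe sets. Of 54675 probe sets, 62 array controls were left out and 54613 were fitted. Gene symbols came from the platform annotation, which gives 1 symbol for 41091 of them, several for 1801 and none listed for 11721. Listed genes without a probe set of their symbol alone, among them MXD4, TXNRD3, ARRB2, ARRDC5, PDCD6IP, PER1, CA9 and DCT, were not analysed here.

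Conditions were compared with limma 3.58.1 in R 4.3.3, in 1 fit per cell line of 9 arrays, and control cultures in 1 fit of 27 arrays in 9 groups. Every p was adjusted by Benjamini-Hochberg over all fitted probe sets, two-sided, with a call at an adjusted p under 0.05. The p values measure the spread between these cultures. SD and SE are on the log2 scale. A group with all arrays under the noise level of 5 was set to that level for a fold, printed as "at least". Genes and lists were chosen with earlier results of these data known. Named likeness genes are the 3 with the highest correlation, and named list genes are at most 4 per list, those with the largest absolute log2 difference among called ones, together with TXN, TXNRD1, MLXIP, MLX, NEDD4, ITCH, ARRB1 and SLC2A1. The fits were tested on simulated data.

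The alternatives were 1 fit over all arrays, a fit of 2 groups only, control arrays only, an intensity trend in the variance, arrays centred on the median, a further quantile normalization, a replicate block, leaving out each array in turn, a filter on dim probe sets (22710 left) and a variation filter (19791 left). The replicate numbers come from the labels. Over the probe sets at the noise level or above, same-numbered arrays deviated together in every pair in WM793B cells between cycling and chronic hypoxia (r = 0.162, 0.106 and 0.161), and in no other comparison did all pairs exceed 0.1. Between cycling hypoxia and control of WM793B cells the r values were 0.169, 0.0859 and 0.298. No main fit took the numbers as pairs, and the replicate block was run as an alternative for every comparison.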

Additional observations from a re-analysis of the deposited data

Results flagged for a closer look

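In the following 5 genes every array of one line lay above its reference and every array of another line lay below it, and the difference between the lines was not tested. For ARRDC4 the log2 difference between cycling hypoxia and control was 1.05 in PC-3 cells, 1.29 in SK-OV-3 cells and -0.71 in WM793B cells, with the PC-3 control arrays under the noise level. MXD1, a repressor of the MYC network, had differences between chronic hypoxia and control of 3.20 in PC-3 cells, -2.50 in SK-OV-3 cells and 1.58 in WM793B cells, where all control arrays were under the noise level and MXD1 was at least 1.58-fold higher. Between cycling hypoxia and control MXD1 gave 1.58 in PC-3 cells and -0.97 in SK-OV-3 cells, and between cycling and chronic hypoxia -1.62 and 1.53. For the thrombin receptor gene F2R these were -0.99 in PC-3 cells and 2.00 in SK-OV-3 cells in chronic hypoxia, and -0.81 and 1.55 in cycling hypoxia, each against control. FKBP5, a glucocorticoid-induced chaperone, gave -1.73 in PC-3 cells and 1.29 in SK-OV-3 cells in cycling hypoxia against control. The thioredoxin reductase gene TXNRD1 gave 0.30 in PC-3 cells and -0.85 in SK-OV-3 cells in the same comparison.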

How the results depend on the processing

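No log2 difference of a family member or named list gene changed sign under any alternative where it was called. Such a difference is between group means, and many alternatives could not change it. These were the other fits, the intensity trend, the replicate block, both filters and leaving out an array outside the compared groups. Only new scaling, leaving out an array of a compared group or reading another probe set could move it. Many of the unmoved values below were thus fixed in advance. Of the values of family members between conditions, 1241 moved by less than 1 SD and 16 by more. Of their control levels between lines, 806 kept their side of the threshold, 3 gained a call and 1 lost it. For named list genes these numbers were 3832, 113 and 222. The cause of these changes was not tested.

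The counts of called family probe sets, 8 in all, moved as follows. The totals over all probe sets moved with the setting too, and nothing is read from the counts. For chronic SK-OV-3 cells the total was 12312 in 1 fit, 6551 with 2 groups and 7273 with the replicate block, against 8912. For cycling WM793B cells it was 2048 without replicate 3 of all groups, against 2201. Most other totals are given below. In 1 fit of 27 arrays 3 were called for chronic and 2 for cycling against chronic SK-OV-3 cells, and 6 for chronic, 1 for cycling and 2 for cycling against chronic hypoxia in WM793B cells. With 2 groups in the fit, 3 were called for chronic SK-OV-3 cells and 0 for cycling against chronic WM793B cells, and the replicate block gave 3 and 0 as well. Without dim probe sets 1 was called for cycling and 2 for cycling against chronic hypoxia in WM793B cells, and the variation filter gave 2 for the second. Without replicate 3 of all WM793B groups, chosen after seeing the data, 1 was called for cycling hypoxia. Leaving out 1 array gave 3 to 5 for chronic SK-OV-3 cells, 1 to 3 for chronic WM793B cells and 0 to 1 for cycling against chronic WM793B cells.

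Some calls changed when 1 array was left out. ARRDC4 in cycling PC-3 cells lost its call without cycling replicate 2 or 3, chronic replicate 3 or control replicate 1 or 3. ARRDC2 in chronic SK-OV-3 cells lost it without chronic replicate 1 or 2 or control replicate 1 or 3, and ARRDC4 in chronic WM793B cells without chronic replicate 2 or 3 or control replicate 1 or 2. ARRDC3 between cycling and chronic WM793B cells lost it without cycling replicate 1 or 2, chronic replicate 2 or control replicate 1. The lead TXNIP probe set was called lower in chronic WM793B cells in 3 of 19 settings. Among these were the fit without control replicate 3 and the 1 fit of 27 arrays, which called all 3 TXNIP probe sets there. The lead TXNIP probe set lost its call in chronic SK-OV-3 cells in 1 fit of 27 arrays and after quantile normalization.

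Of 43 list genes, 15 were called for cycling against chronic PC-3 cells, 25 with arrays centred on the median and 9 in 1 fit of 27 arrays. For cycling SK-OV-3 cells 12 were called, 7 with the replicate block and 7 to 13 without single arrays, and for cycling against chronic SK-OV-3 cells 7 to 11 of 12. For chronic WM793B cells 11 were called, 19 in 1 fit, 18 without dim probe sets and 7 to 11 without single arrays. For cycling WM793B cells 5 were called, 9 in 1 fit, 3 with 2 groups and 1 to 6 without single arrays, and for cycling against chronic WM793B cells 5, 14, 1 and 1 to 6, with 9 without dim probe sets and 8 without replicate 3 of all groups.

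Over all probe sets, centring on the median raised calls for chronic PC-3 cells to 32445 (6327 higher), against 14068 (5906 higher), for cycling against chronic PC-3 cells to 27233 (24179 higher), against 7364 (5001 higher), and for WM793B against PC-3 control cells to 27722 (9519 higher), against 19055 (9518 higher). One fit gave 8637 calls for cycling SK-OV-3 cells (5561 in the fit per line), 8762 for cycling against chronic SK-OV-3 cells (5300), 11341 for chronic WM793B cells (7479), 5933 for cycling WM793B cells (2201) and 5429 for cycling against chronic WM793B cells (1834). Those last 2 comparisons gave 1455 and 373 with 2 groups, 1222 and 889 with the replicate block, 3389 and 2985 with the variation filter and 4354 and 3821 without dim probe sets, and 2 groups gave 3146 for cycling against chronic SK-OV-3 cells. Leaving out single arrays gave 748 (without cycling replicate 2) to 2727 (without chronic replicate 3) calls for cycling WM793B cells and 466 (without cycling replicate 1) to 2164 (without chronic replicate 3) for cycling against chronic WM793B cells. It gave 4827 for chronic WM793B cells without control replicate 1 and 4940 without control replicate 2, and 3436 and 3113 for cycling against chronic SK-OV-3 cells without cycling replicates 1 and 2.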
